A study of Mus musculus with 2 samples.

Results

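Integrins and the ADAMTS family are the genes described here: 51 of the 33696 features in the deposited matrices, taken by symbol. They are 17 integrin alpha subunits, 9 integrin beta subunits, Itgbl1, 19 ADAMTS proteases and 5 ADAMTS-like genes. Itgbl1 takes its name from a resemblance to beta subunits and is not itself an integrin subunit. Colonic stromal cells came from Il10ra_ff_Pdgfra_cre mice, called Cre here, and from Il10ra_ff mice, called control. Floxed Il10ra alleles were present in both groups, and the Cre group had in addition the recombinase under control of Pdgfra, a gene of fibroblasts. Per the design text, whole colons of 2 mice per genotype, aged 6 months, were sorted for live Podoplanin-positive cells without CD45, CD31 and EpCAM. It does not say whether the mice of a genotype were pooled. Each genotype gave 1 library, so no test between genotypes was possible, and all intervals cover counting error only.

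Integrins are receptors of 1 alpha and 1 beta chain that tie a cell to the matrix around it and to other cells. The alpha chain largely sets the ligand: collagens and laminins, fibronectin and other proteins with an RGD motif, or counter-receptors such as VCAM1. ADAMTS proteases are secreted enzymes that trim procollagens, cleave large proteoglycans such as versican and act on fibrillin microfibrils. ADAMTS-like proteins share their ancillary domains but lack the protease, and several bind microfibrils. In the gut wall, fibroblasts, muscle and glia build this matrix and hold to it.

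The Cre library held 8627 barcodes and 66845139 UMIs, and the control library 11380 barcodes and 76570611 UMIs; 115 barcode sequences occurred in both. After filtering, 8302 Cre and 10657 control cells were kept. Cells were placed in classes one by one by marker panels, called gates. The subepithelial fibroblast gate (Sox6, Bmp3, Foxl1) held 441 Cre and 1208 control cells, the lamina propria gate (Adamdec1, Edil3, Frmpd4) 1818 and 2543, and the adventitial gate (Pi16, Ackr4, Cd81) 2305 and 2111. No gate took 28.0% of Cre and 28.9% of control cells. Stricter gates for other cells held 170 and 680 smooth muscle cells, 121 and 83 glia, 84 and 78 interstitial cells of Cajal, 56 and 71 mesothelial cells and 59 and 59 lymphatic endothelial cells. The median lymphatic cell was shallow, at 2315 and 1676 UMIs. The gate of the pericyte panel, with 128 and 97 cells, had Kcnn3 and Rgs5 among its leading genes and lacked the pericyte gene Higd1b almost wholly, so it is called the Rgs5/Abcc9 gate. Il10ra itself had 0 UMIs in subepithelial and adventitial cells of both libraries and 3 Cre and 1 control UMIs in lamina propria cells, which cannot check the deletion.

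Levels are UMIs of a gene scaled to the total of all cells of a gate (CPM). A UMI is counted once per captured transcript start, so levels of different genes need no scaling by length. A gene was measured in a gate at a mean of at least 10 CPM and 20 UMIs over both libraries. By that rule 28 of the 51 genes were measured in at least 1 fibroblast gate and 23 in none. Leukocyte integrins were among those near 0: over all kept cells Itgal was at 0.431 CPM in Cre and 0.429 CPM in control, Itgam at 0.338 and 0.166 CPM and Itgb2 at 0.354 and 0.138 CPM. Itgax had 3 UMIs in Cre and 0 in control cells. The highest level of Itgb2 in any gate, 10.0 CPM in Cre interstitial cells of Cajal, came from 5 UMIs. Without 2 cells of a cluster led by S100a8 and S100a9 it was at 0 in that gate, and so was Ptprc, which encodes CD45.

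**Figure D1:**
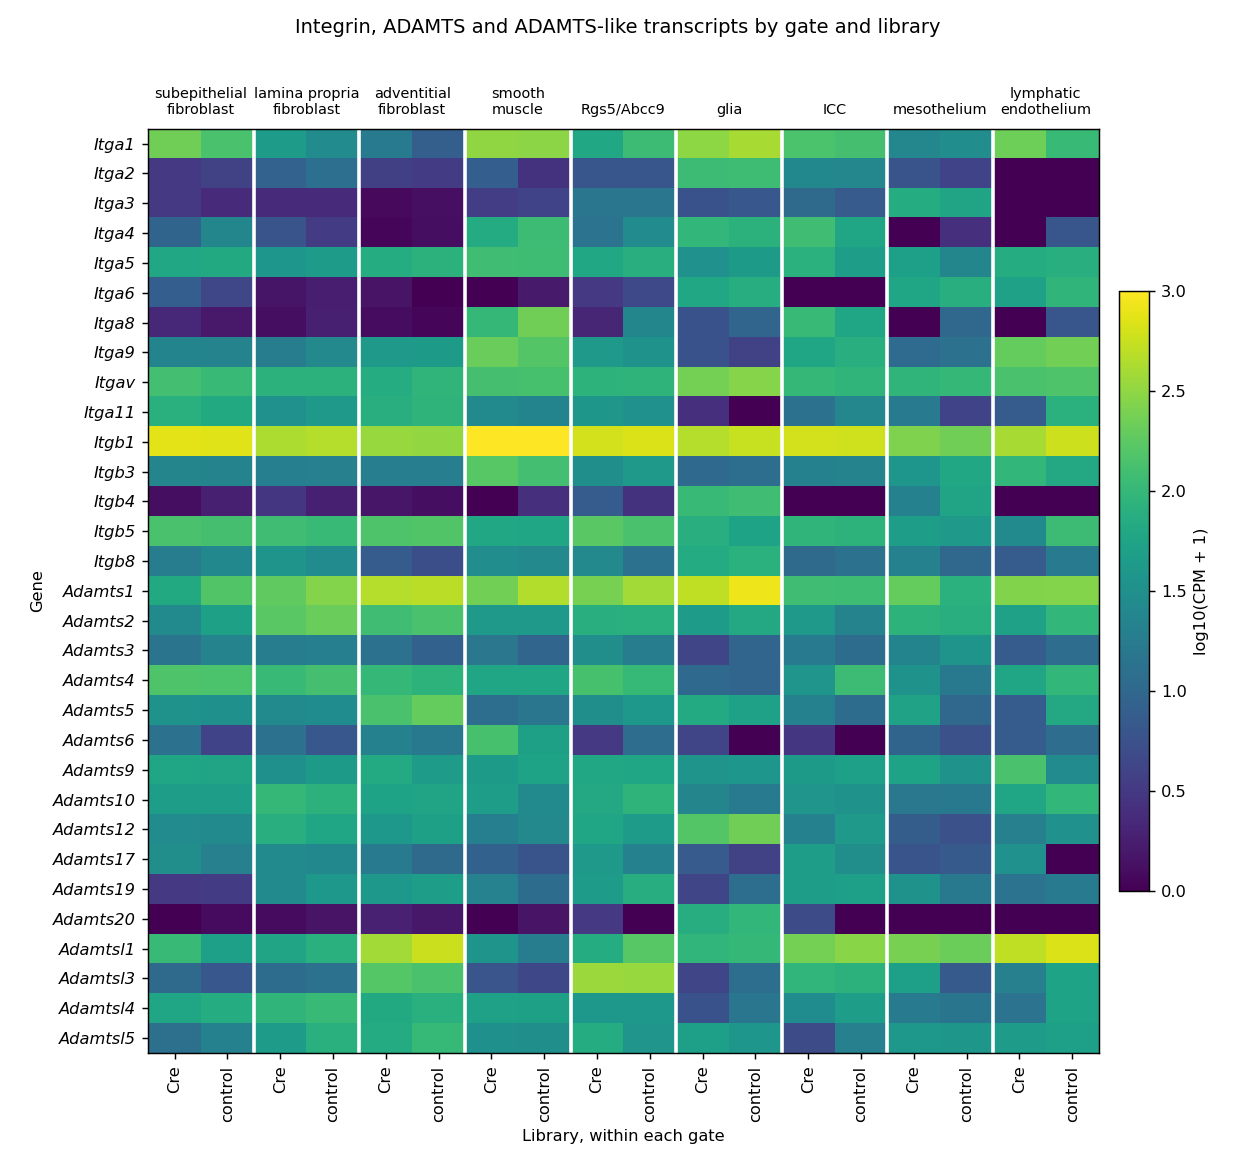
Level of the 31 members that passed the naming rule in each gate, as log10 of CPM plus 1, with the Cre column left of the control column. Itgb1 is bright in every column, Adamts20, Itga2 and Itgb4 are bright in glia, and Adamtsl3 is bright in the adventitial and Rgs5/Abcc9 gates.

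Itgb1 (ENSMUSG00000025809), the common partner of most alpha subunits for collagen, laminin and fibronectin, dominated the beta subunits. It made up 80.8% of beta UMIs in Cre and 80.3% in control subepithelial cells, 71.0% and 75.4% in lamina propria cells, and 65.7% and 64.5% in adventitial cells. Its level was highest in smooth muscle, at 1203 CPM in Cre and 1291 CPM in control, and lowest in mesothelium, at 263 and 225 CPM. Subepithelial cells had 747 CPM in Cre and 713 CPM in control. Itgb5, a partner of alpha v, was the next beta subunit in fibroblasts, with 28.9% of beta UMIs in Cre and 30.5% in control adventitial cells. Itgb3, another partner of alpha v, was at 165 and 127 CPM in smooth muscle. It was between 18.1 and 21.9 CPM in the fibroblast gates of both libraries. Itgb8 had 5.77% of beta UMIs in Cre and 4.38% in control lamina propria cells, where Itgb3 had 3.06% and 3.12%. The level of Itgb8 was highest in glia, at 70.0 CPM in Cre and 81.3 CPM in control.

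The leading alpha subunit differed between gates. Itga1 (ENSMUSG00000042284), a receptor for collagen IV and laminins, led the subepithelial gate, with 41.6% of alpha UMIs in Cre and 31.0% in control. Itgav, which binds RGD proteins and latent TGF-beta, led the lamina propria gate with 35.2% and 34.1%. The adventitial gate was divided almost evenly among Itga11, a fibrillar collagen receptor, at 25.9% and 26.5%, Itgav at 24.4% and 27.5%, and the fibronectin receptor gene Itga5 at 24.3% and 25.3%. Itga1 led smooth muscle too, with 32.4% and 27.3%. The next there was Itga9, a receptor for tenascin-C and other ligands, in Cre, with 20.6% in Cre and 14.5% in control, and the nephronectin receptor gene Itga8 in control, with 9.90% in Cre and 20.6% in control. Mesothelium differed from all of these by its laminin receptors Itga3, at 70.3 CPM in Cre and 54.8 CPM in control, and Itga6, at 58.6 and 76.2 CPM. The summed alpha level was 541 CPM in Cre and 435 CPM in control subepithelial cells, but 238 and 246 CPM in lamina propria cells.

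**Figure D2:**
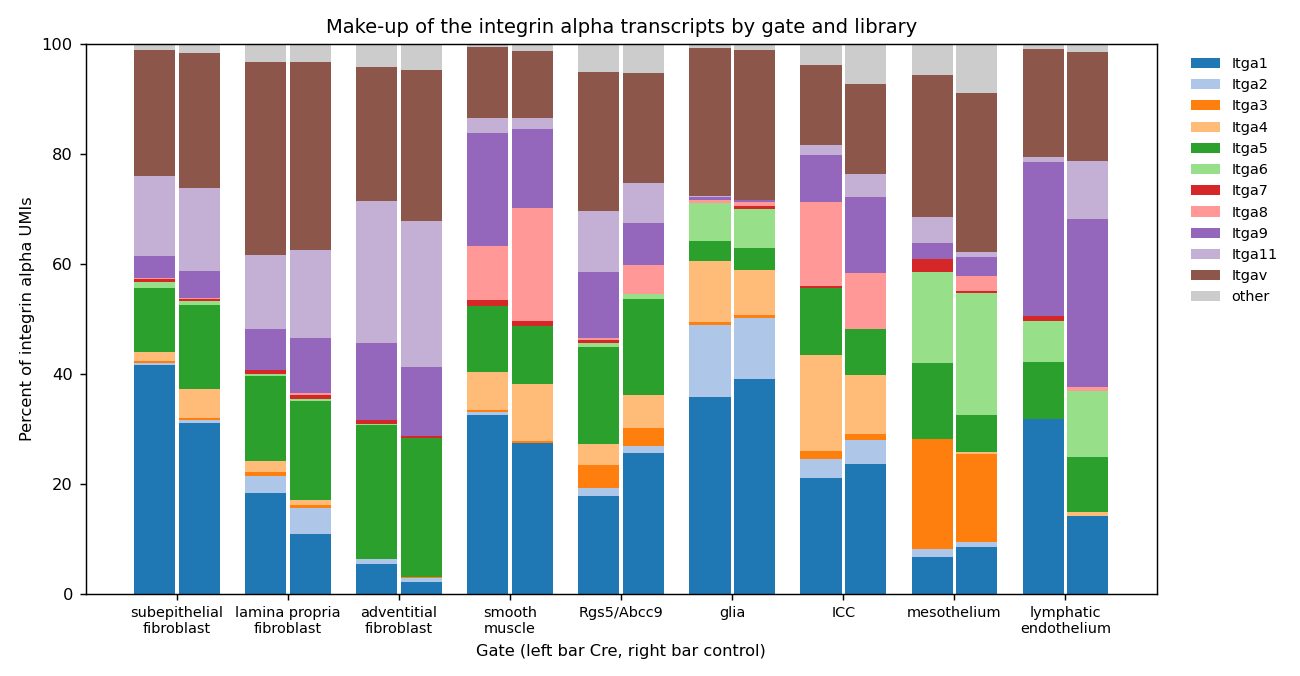
Share of each gene among the UMIs of all integrin alpha subunits, in percent, for the Cre (left bar) and control (right bar) library of each gate. Itga1 takes 41.6% in Cre and 31.0% in control subepithelial cells and 5.35% and 2.13% in adventitial cells.

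Some members had a clearly higher level in 1 class than in the others, which does not say where most of their UMIs lay. Restricted use was defined as the same top gate in both libraries with a level at least 2-fold above the next gate. The top gate was the same in both libraries for 21 of 35 measured members with the stricter gates, against 52.6% of all measured genes, and for 23 of 34 with the gates as first drawn, against 50.1%. With the stricter gates 8 of 35 measured members met it, or 22.9%, against 11.4% of all measured genes. Adamts20, Itga2, Itga3 and Itgb4 were measured in no fibroblast gate, so a gene of this kind enters the count only through the gates where it is high, and nothing is read from these shares. Glia held 4 of the 8. Adamts20 (ENSMUSG00000022449), a versican-cleaving protease, was at 73.2 CPM in Cre and 95.3 CPM in control glia, and at most at 0.869 CPM in any fibroblast gate. Itgb4 (ENSMUSG00000020758), which pairs with Itga6 as a laminin receptor, was at 107 and 118 CPM in glia, the collagen receptor gene Itga2 at 113 and 115 CPM, and Adamts12, a protease that cleaves the cartilage protein COMP, at 157 and 224 CPM. Itga6 was at 60.5 CPM in Cre and 72.9 CPM in control glia.

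With each cell thinned to 2000 UMIs, Adamts20 had a UMI in 13.3% of 113 Cre glia (exact 95% interval 7.62 to 20.9) and 16.2% of 68 control glia (8.36 to 27.1). In lamina propria cells the shares were 0.115% and 0.123%. Without thinning they were 25.6% and 27.7% in glia. Smooth muscle held Adamts6, the mesothelium gate Itga3, the adventitial gate Adamts5 and the Rgs5/Abcc9 gate Adamtsl3. The gates as first drawn gave 6 of 34 members, or 17.6%, against 8.63% of all measured genes: Adamts20, Itga2, Itgb4, Adamts6, Itga3 and Itgb3. Those gates held more fibroblast transcripts, and Clec3b, a fibroblast gene, still stood at 1430 CPM in the stricter control lymphatic gate.

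Among the fibroblast gates alone, 5 of 28 measured members were restricted, or 17.9%, against 8.21% of all measured genes. Here too a gene could enter through the gate where it is high, as Itgbl1 did, measured in 1 fibroblast gate. Nothing is read from this share. Adamtsl3 (ENSMUSG00000070469) was at 162 CPM in Cre and 138 CPM in control adventitial cells, and between 5.48 and 12.4 CPM in the other fibroblast gates. Adamtsl1 (ENSMUSG00000066113) was at 384 CPM in Cre and 570 CPM in control adventitial cells. Adamts5, a cartilage aggrecanase that also cleaves versican, was at 135 and 192 CPM there, and Itgbl1 at 9.22 and 19.1 CPM. Itga1 was the member restricted to the subepithelial gate among the fibroblast gates. Outside these gates Itga1 was higher, at 321 CPM in Cre smooth muscle and 404 CPM in control glia. Adamtsl1 was higher in lymphatic cells, at 521 CPM in Cre and 702 CPM in control. In cells clustered without the integrin and ADAMTS genes, Adamtsl1 and Adamts5 were both among the 10 leading genes of cluster 8, with 306 Cre and 842 control cells. Itgbl1 was among those of cluster 12, which met no single class. Of its 361 Cre and 160 control cells, 45 and 62 were in the adventitial gate. With the stricter gates Itgbl1 was highest in mesothelium, at 20.1 CPM in Cre and 21.3 CPM in control. That gate had only 56 and 71 cells, and with 1 CPM added its lead over the next was 1.40-fold and 1.11-fold. With the gates as first drawn mesothelium was highest in Cre but the adventitial gate in control.

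The most abundant protease transcript was Adamts1 (ENSMUSG00000022893), a proteoglycanase. It made up 43.2% of ADAMTS UMIs in Cre and 42.8% in control adventitial cells and 53.1% and 60.6% in glia. In subepithelial cells Adamts4, another aggrecan- and versican-cleaving enzyme, led in Cre alone. It had 31.8% in Cre and 25.3% in control, and Adamts1 had 13.8% and 27.0%. Adamts2, the main procollagen I N-proteinase, was at 168 CPM in Cre and 208 CPM in control lamina propria cells, at 119 and 135 CPM in adventitial cells and at 26.3 and 49.1 CPM in subepithelial cells. Of the other procollagen N-proteinases, Adamts3 stayed between 7.59 and 20.8 CPM in the fibroblast gates and Adamts14 between 1.85 and 14.4 CPM.

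Between libraries, Itga1 was at least 1.5-fold higher in Cre in all 3 fibroblast gates. Subepithelial cells had 225 CPM in Cre (95% Poisson interval 209 to 242) and 135 CPM in control (127 to 143), a ratio of 1.67 (1.52 to 1.83). Lamina propria cells had 43.3 CPM in Cre and 26.7 CPM in control, a ratio of 1.62 (1.44 to 1.83). Adventitial cells had 15.7 and 7.03 CPM, a ratio of 2.23 (1.78 to 2.81). The Cre level was thus the higher one in each gate, and the order of the gates was the same in both libraries. After thinning, Itga1 had a UMI in 32.0% of Cre and 23.2% of control subepithelial cells, in 8.26% and 5.24% of lamina propria cells and in 3.28% and 1.42% of adventitial cells, and without thinning in 68.9% and 51.5%, 25.4% and 16.9%, and 11.5% and 4.55%.

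Pooled over the fibroblast gates, Itga1 was at 43.7 CPM in Cre and 41.6 CPM in control. The subepithelial gate, where Itga1 was highest, held 441 Cre and 1208 control cells. With each class weighted alike the log2 ratio was 0.74, against 0.069 in the pool. Adamtsl3 showed the opposite case, at 92.6 CPM in Cre and 53.3 CPM in control when pooled, with a log2 ratio of 0.79, but of 0.22 when the classes had equal weight.

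**Figure D3:**
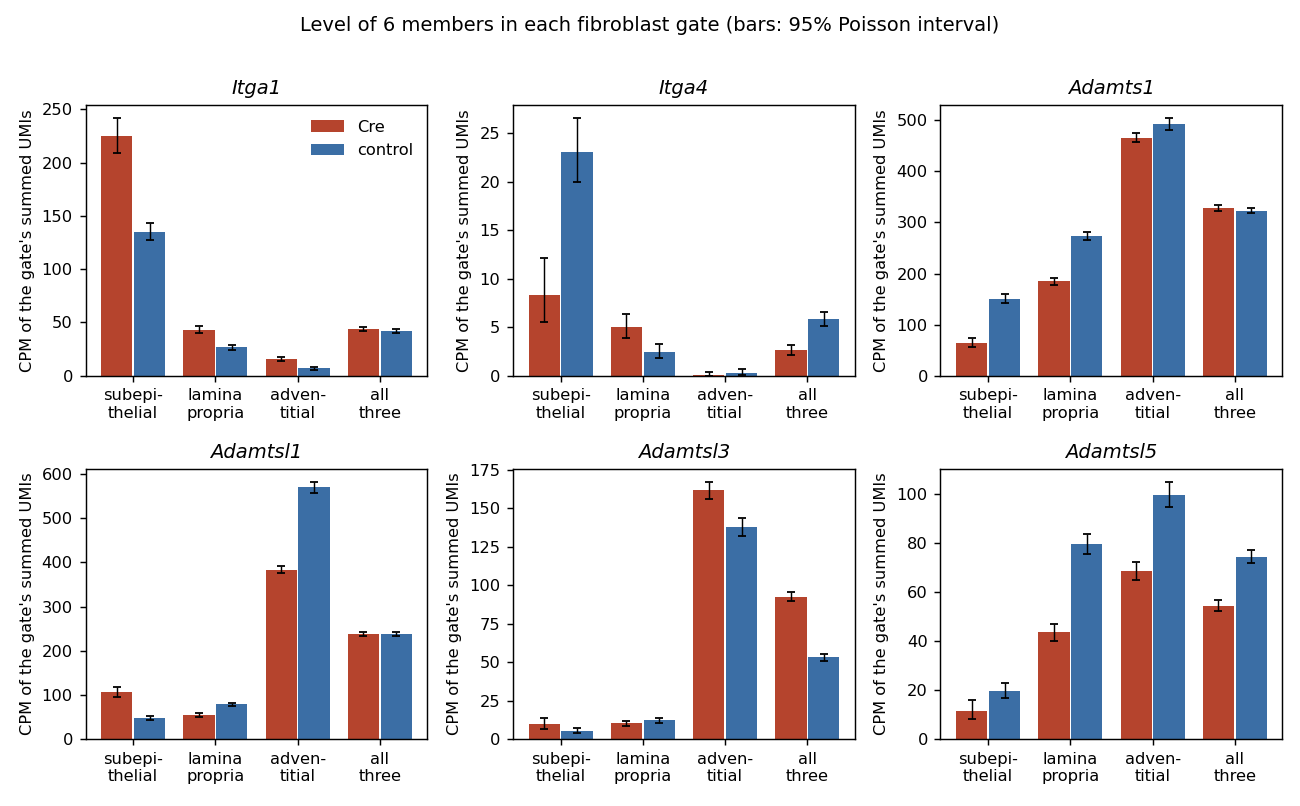
CPM of 6 members in the subepithelial, lamina propria and adventitial gates and in all of them pooled, with Cre bars left of control bars and exact 95% Poisson intervals. Itga1 bars are higher in Cre in each gate but nearly level at 43.7 and 41.6 CPM in the pool.

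In the subepithelial gate 22 members were measured; 3 of them were higher in Cre by 1.5-fold or more and 5 as much lower. Over all 9353 measured genes 4.9% were higher and 4.16% lower, and the median log2 ratio was 0.055 for the members and 0.045 for all genes. Besides Itga1, Adamtsl1 was higher, at 107 CPM in Cre and 48.2 CPM in control, a ratio of 2.21 (1.91 to 2.56). Adamts17, a protease linked to fibrillin microfibrils, was at 29.4 and 19.0 CPM. Adamts1 was lower, at 64.9 CPM in Cre (56.4 to 74.3) and 151 CPM in control (143 to 160), a ratio of 0.430 (0.370 to 0.497).

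Itga4 (ENSMUSG00000027009), which encodes the alpha chain of the VCAM1 receptor, was lower in Cre subepithelial cells, at 8.35 CPM against 23.1 CPM in control. The ratio was 0.361 (0.232 to 0.542), from 27 and 198 UMIs. The procollagen proteinases Adamts2, at 26.3 and 49.1 CPM, and Adamts3, at 13.3 and 20.8 CPM, were lower too. So was Adamtsl5 (ENSMUSG00000043822), a microfibril-binding protein gene, with 38 UMIs in Cre and 171 in control, a ratio of 0.589 (0.403 to 0.841). Itgb1, Itgb5, Itgav, Itga5 and Itga11 stayed within 1.5-fold.

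Other values moved with the subepithelial gate. A list of 13 stress and handling genes, among them the immediate early gene Fos, had 7 members at least 1.5-fold lower in Cre and 0 higher, with a median log2 ratio of -0.62. Fos was at 3679 CPM in Cre and 6385 CPM in control. Clec3b was at 343 CPM in Cre and 768 CPM in control, Dcn at 1842 and 3656 CPM, Tagln at 1282 and 943 CPM and Acta2 at 1765 and 1238 CPM. Cluster 2 held 91.6% of Cre and 85.6% of control subepithelial cells, and cluster 6 held 0.454% and 8.11%. The part of these in the members' ratios was not tested. Over all cells of cluster 2, in or out of the gate, the ratio of Itga1 was 1.51 (1.38 to 1.66). There the ratio was 0.493 for Adamts1, 2.20 for Adamtsl1, 1.90 for Adamts17 and 0.369 for Itga4. With 1 CPM added the other 3 lower members were within 1.5-fold there, and their plain ratios were 0.748 for Adamts2, 0.661 for Adamts3 and 0.875 for Adamtsl5. With clusters gated in place of cells, 3 members were higher and 2 lower in the gate.

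**Figure D4:**
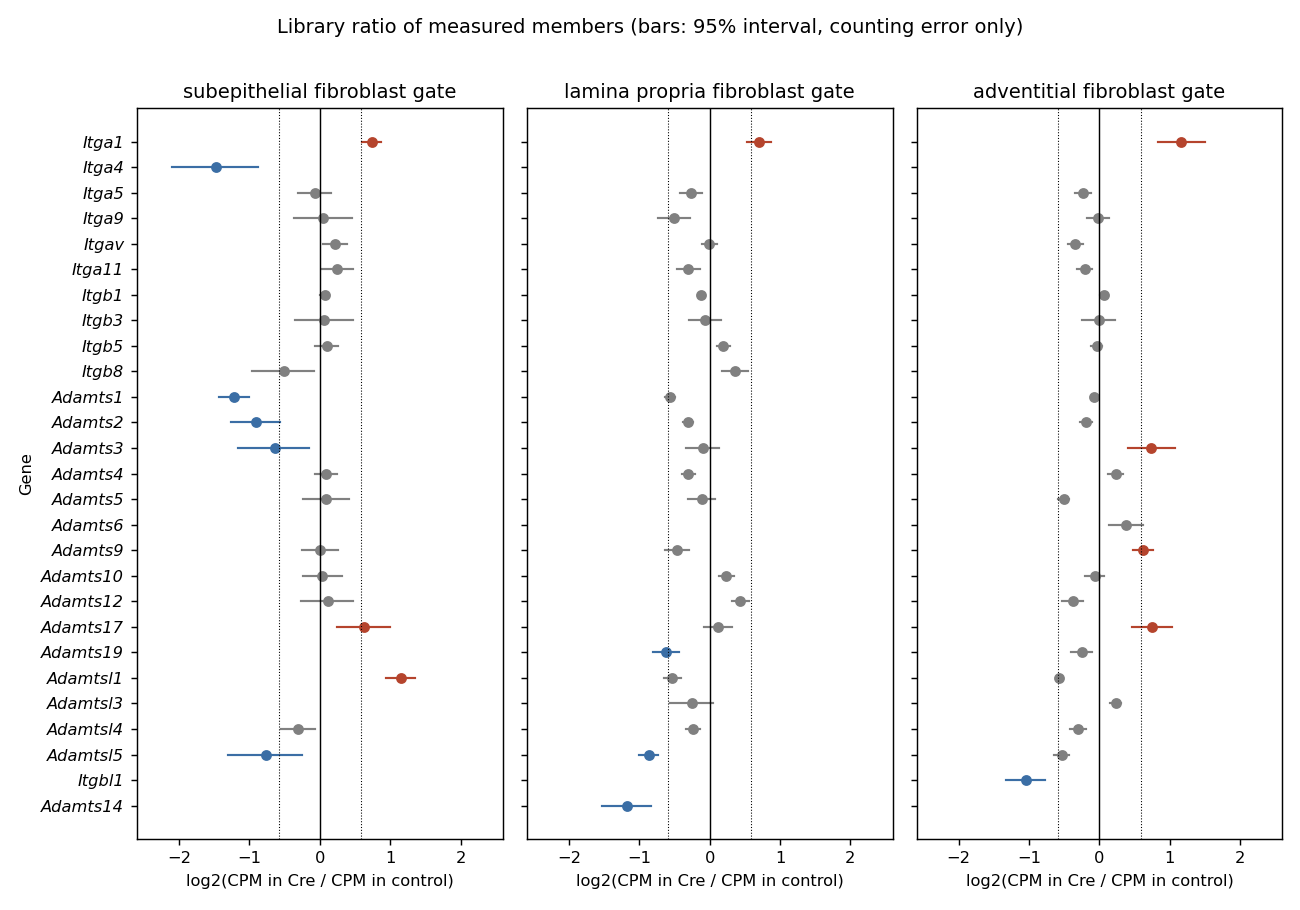
Log2 ratio of Cre over control for the named members measured in each fibroblast gate, plus Itgbl1 and Adamts14, with 95% intervals for counting error. Red points are at least 1.5-fold higher in Cre, blue points as much lower, and dotted lines mark 1.5-fold; Itga1 lies right of 0 in each panel.

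In the lamina propria gate 1 of 24 measured members was higher, Itga1, and 3 were lower. Over 9191 measured genes 4.8% were higher and 3.24% lower. The members' median log2 ratio was -0.23, and that of all genes 0.027. The lower ones were Adamtsl5, at 43.7 CPM in Cre and 79.7 CPM in control, Adamts14, at 6.37 and 14.4 CPM, and Adamts19, at 25.3 and 38.9 CPM. Adamts1 lay just within 1.5-fold, at 185 CPM in Cre and 274 CPM in control, a ratio of 0.675 (0.644 to 0.708).

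Lamina propria cells of the libraries fell mostly in different clusters. Cluster 1, led by Sfrp2 and Cxcl13, held 66.5% of Cre and 0.708% of control cells, while cluster 0 held 2.75% and 49.4%, and cluster 6 held 21 Cre cells and 763 control cells. Cluster 4 held gated cells of both libraries, 28.2% and 18.2%. Ratios there cover all 775 Cre and 776 control cells of the cluster, of which 512 and 463 were in the gate. Itga1 was at 53.3 CPM in Cre and 52.9 CPM in control in cluster 4, a ratio of 1.01 (0.835 to 1.22). The lower ratios of Adamts14, 0.459, and Adamts19, 0.534, were found within cluster 4 too, and that of Adamtsl5 was 0.683. Hbb-bs, of red cells, was at 361 CPM in Cre and 0.601 CPM in control lamina propria cells. Cd74, H2-Aa and H2-Ab1, the 3 genes listed for antigen-presenting cells, summed to 84.8 and 24.4 CPM there. A list of 8 leukocyte genes summed to 13.6 and 7.01 CPM. The part of these genes in the members' ratios was not tested.

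In the adventitial gate 4 of 25 measured members were higher in Cre and 1 lower, where 4.56% of 8377 measured genes were higher and 2.15% lower. The median log2 ratio was -0.080 for the members and 6.27e-05 for all genes. The higher members were Itga1, Adamts9, a versican-cleaving protease, at 67.2 CPM in Cre and 43.8 CPM in control, Adamts17, at 16.6 and 9.93 CPM, and Adamts3, at 12.6 and 7.59 CPM. The lower one was Itgbl1. The 3 most abundant members stayed within 1.5-fold: Adamts1, at 466 CPM in Cre and 493 CPM in control, Adamtsl1, at 384 and 570 CPM with a ratio of 0.674, and Itgb1, at 341 and 326 CPM. Adamts5, at 135 and 192 CPM, also did, with a ratio of 0.703. The 3 genes listed for antigen-presenting cells summed to 36.5 CPM in Cre and 2.28 CPM in control adventitial cells. There 8 leukocyte genes summed to 6.52 and 2.48 CPM and genes of red cells to 4.20 and 0.483 CPM. In glia the same 3 genes summed to 581 CPM in Cre and 19.6 CPM in control, and the leukocyte genes to 3.18 and 0 CPM. In mesothelium these sums were 581 and 53.3 CPM, and 3.35 and 3.05 CPM. The part of these genes in the members' ratios was not tested. With clusters gated in place of cells, 2 members were higher and 3 lower, and with gates drawn on thinned cells 0 were higher and 1 lower.

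Ratios differed between clusters of the adventitial class that held both libraries, taken over all cells of each cluster. In cluster 8 these were 306 Cre and 842 control cells, of which 176 and 543 were in the gate. Adamts9 was 2.37-fold higher in Cre (2.04 to 2.76) in cluster 8, at 143 and 60.3 CPM, but had a ratio of 0.712 in cluster 7 and of 0.755 in cluster 5. Adamts17 had ratios of 4.07 in cluster 8, 1.40 in cluster 5 and 0.742 in cluster 7. Itgbl1 had ratios of 0.373 in cluster 8 and 1.54 in cluster 7. Itga1 was measured in cluster 7 among these, at 27.8 CPM in Cre and 16.8 CPM in control, a ratio of 1.65 (1.19 to 2.35). Cluster 8 held 7.64% of Cre and 25.7% of control adventitial cells, cluster 5 8.11% and 43.0%, and cluster 7 29.2% and 12.9%. Cluster 3, with 31.3% of the Cre and 1.23% of the control cells, was too much of 1 library for such a comparison.

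**Figure D5:**
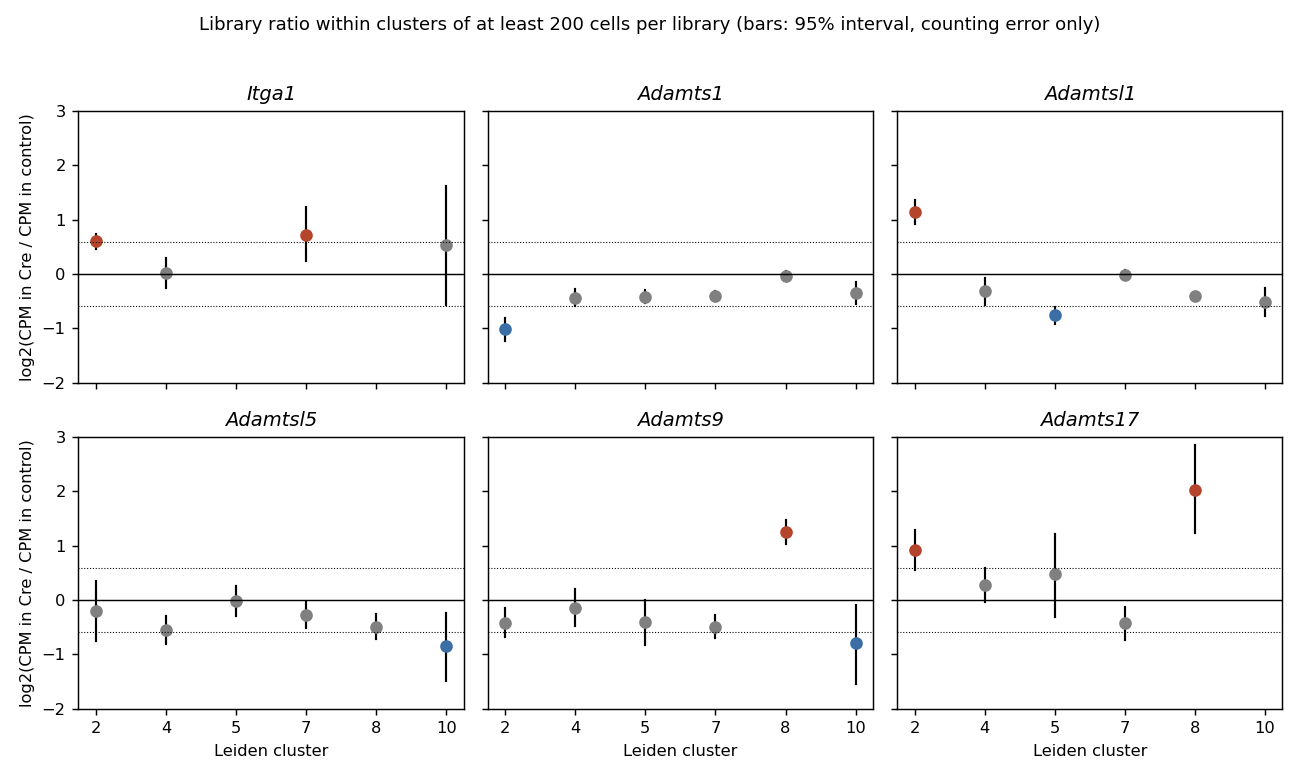
Log2 ratio of Cre over control over all cells of clusters with at least 200 cells of each library, with 95% intervals for counting error. Cluster 2 is subepithelial, 4 lamina propria, and 5, 7 and 8 adventitial, while 10 met no single class. A gene not measured in a cluster has no point, and Adamts9 is above 0 in cluster 8 but below 0 in clusters 5 and 7.

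Over all fibroblast gates, 2 of 24 measured members were higher and 0 lower, where 3.39% of 9061 measured genes were higher and 2.83% lower. Besides Adamtsl3 this was Adamts6 (ENSMUSG00000046169), a protease that binds fibrillin, at 16.6 CPM in Cre and 8.32 CPM in control. Adamts6 was under the minimum in the subepithelial gate, with 12.7 CPM in Cre and 3.03 CPM in control, and in the lamina propria gate, with 12.5 and 5.46 CPM. Adventitial cells had 414 UMIs of it in Cre and 223 UMIs in control, a ratio of 1.30 (1.10 to 1.54). Over all cells of the adventitial clusters the ratio of Adamts6 was 1.88 in cluster 5, 1.79 in cluster 8 and 0.878 in cluster 7. Smooth muscle had the highest level of it, 134 CPM in Cre and 50.4 CPM in control, a ratio of 2.67 (2.17 to 3.28).

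In smooth muscle 5 of 25 members measured were higher in Cre and 3 lower, where 6.98% of 9082 measured genes were higher and 6.62% lower. The 5 higher ones were all proteases or ADAMTS-like genes: Adamts6, Adamts10, at 46.8 and 25.8 CPM, Adamts19, at 20.4 and 10.6 CPM, Adamtsl1, at 34.9 and 17.8 CPM, and Adamts3, at 14.5 and 8.47 CPM with an interval of the ratio from 0.906 to 3.09. Itga8 (ENSMUSG00000026768) was at 97.8 CPM in Cre (80.8 to 117) and 224 CPM in control (210 to 238), and at most at 1.24 CPM in any fibroblast gate. Itga4 was at 68.9 and 112 CPM, and Adamts1 at 227 and 450 CPM. The stress list had a median log2 ratio of -0.57 in these cells, with 6 of 13 members lower; its part was not tested.

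In interstitial cells of Cajal, Itga8 and Itga4 were higher in Cre. Itga8 was at 104 CPM in Cre and 57.0 CPM in control, from 52 and 27 UMIs, and Itga4 at 118 and 59.1 CPM, from 59 and 28 UMIs. Without the 2 Cre cells of the leukocyte-led cluster Itga8 was at 106 CPM and Itga4 at 119 CPM. Members 1.5-fold apart were not counted in this gate, nor was the share over all measured genes computed. These ratios therefore cannot be weighed against it. Glia had 0 of 19 measured members higher and 1 lower, Adamts1, at 515 CPM in Cre and 832 CPM in control, while 14.3% of 7139 measured genes were higher and 8.53% lower. In lymphatic cells Itga9, needed for lymphatic valves, was at 193 CPM in Cre and 230 CPM in control, from 30 and 43 UMIs.

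Genes that work with the members were compared in the same gates, by lists of ligands, adaptors and substrates. Of all measured genes 4.9% were higher and 4.16% lower in subepithelial, 4.8% and 3.24% in lamina propria and 4.56% and 2.15% in adventitial cells. Of 24 measured integrin ligand and basement membrane genes 3 were higher and 1 lower in subepithelial cells. Postn, which encodes the matricellular protein periostin, was at 468 CPM in Cre and 1493 CPM in control, Lama1, a laminin chain, at 36.8 and 9.10 CPM, Lama2 at 855 and 540 CPM and Vcam1, the counter-receptor of alpha 4, at 57.8 and 36.3 CPM. In lamina propria cells 1 of 24 was higher, Lama1 at 50.8 and 13.1 CPM, and 3 were lower. These were Fn1, fibronectin, at 529 and 1156 CPM, Postn at 1363 and 2641 CPM and Ccn2 at 459 and 815 CPM. In adventitial cells 3 of 22 were higher, Tnc, tenascin-C, at 93.6 and 26.3 CPM, Ccn1 at 1665 and 987 CPM and Icam1 at 532 and 321 CPM, and Postn was lower at 353 and 663 CPM.

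Of integrin adaptor and adhesion signalling genes, 0 of 27 were 1.5-fold apart in subepithelial, 2 of 28 in lamina propria and 1 of 27 in adventitial cells. Counts this small were not read against the shares of all genes given above. Fermt2, the integrin activator kindlin-2, was at 368 CPM in Cre and 394 CPM in control subepithelial cells. Tns3, a tensin, was at 45.5 and 28.0 CPM and Lims2 at 8.50 and 15.7 CPM in lamina propria cells, and Actn1, alpha-actinin, at 44.4 and 25.6 CPM in adventitial cells. Among ADAMTS substrates, inhibitors and partners, 1 of 23 was higher and 4 lower in subepithelial cells, with a median log2 ratio of -0.31. The lower ones were Fbln2, fibulin-2, at 26.3 and 105 CPM, Dcn, Thsd4 at 26.3 and 44.6 CPM and Fbn2 at 6.18 and 15.2 CPM. Lox, a collagen cross-linking enzyme, was higher at 65.5 and 43.1 CPM. In lamina propria cells 0 of 22 were higher and 3 lower: Col3a1 at 1653 and 3352 CPM, Col1a1 at 694 and 1229 CPM and the link protein Hapln1 at 53.1 and 108 CPM. In adventitial cells 1 of 20 was higher, Lox at 53.0 and 32.5 CPM, and 2 lower, Fbn1 (fibrillin-1) at 691 and 1176 CPM and Timp3, an inhibitor of ADAMTS proteases, at 420 and 671 CPM.

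The promoters of Itga1, higher in each fibroblast gate of the Cre library, and of Adamts1, lower in its subepithelial cells, are shown because the study's title names interferon signalling. They are RefSeq windows of 300 bases on GRCm38.p6, another build than that of the counts, and run 5' to 3' on the minus strand, chr13:115101915-115102214 for Itga1 and chr16:85803064-85803363 for Adamts1.
Itga1: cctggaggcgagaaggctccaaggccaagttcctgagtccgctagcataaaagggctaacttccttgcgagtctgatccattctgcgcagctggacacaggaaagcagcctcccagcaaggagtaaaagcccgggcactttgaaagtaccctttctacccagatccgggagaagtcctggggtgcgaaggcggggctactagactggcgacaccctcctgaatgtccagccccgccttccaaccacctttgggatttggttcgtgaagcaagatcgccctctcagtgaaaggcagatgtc
Adamts1: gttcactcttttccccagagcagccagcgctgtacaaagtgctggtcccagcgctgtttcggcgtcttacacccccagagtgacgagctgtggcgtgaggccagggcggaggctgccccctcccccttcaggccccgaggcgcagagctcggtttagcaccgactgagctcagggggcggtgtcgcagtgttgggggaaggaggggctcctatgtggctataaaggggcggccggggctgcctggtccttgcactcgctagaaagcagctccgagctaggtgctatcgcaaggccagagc
Neither holds, on either strand, the interferon response core GAAANNGAA, the gamma-activated site TTCNNNGAA or the AP-1 site TGANTCA, so no base is in capitals. Of 32851 such windows 8.56% hold the first, 8.30% the second and 7.81% the third. Windows were found for 34 of the 51 members, and of their 36 windows 3 hold the interferon core (Itga2b, Itga3 and Itgav), 1 the gamma-activated site (Itga10) and 3 the AP-1 site (Itga3, Itga9 and Itgax). Matches of different motifs were allowed to overlap. No match says only that these letters are not in the window.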

How the data were processed

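Raw UMI counts per gene and barcode were deposited for each library; per the submitters' processing notes they were made with Cell Ranger 8.0.1 on GRCm39, from 10x Genomics 5' libraries per the labels. The authors' whole-number counts were used as they are, and the first row stood for each of 26 repeated symbols. A barcode was kept with 500 genes or more and mitochondrial UMIs of 10% or less. Scrublet (scanpy 1.11.5, expected doublet rate 8%) called and removed 1.32% of Cre and 3.56% of control barcodes that passed the filter, at cutoffs of 0.404 and 0.326. A cell took the class whose marker panel score was at least 0.25 and led the next by 0.25. Near the cut, within 0.1, lay 23, 193 and 290 Cre cells and 73, 390 and 290 control cells of the subepithelial, lamina propria and adventitial gates. After fibroblast genes were seen in the 6 gates of other cells, a score of at least 1.5 was asked there. Clusters were made on 2000 variable genes without the members, their pathway genes and interferon genes. Ratios within a cluster used all its cells, in or out of the gate.

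UMIs were summed per library and gate and divided by the total. Log2 ratios of Cre over control have 1 CPM added, and printed ratios have none. No p-value was computed. Levels carry exact Poisson, ratios exact binomial and shares Clopper-Pearson intervals at 95%. Named members reached 20 CPM in either library and 50 UMIs in sum, in a gate of 50 cells or more per library. For each pathway list the planned rule was the 2 highest, 2 lowest and 2 most abundant genes per fibroblast gate. That rule was not followed in the text. Apart from Fermt2, the pathway genes printed with levels are those at least 1.5-fold apart, and several genes of the rule are not printed. Itgbl1, Adamts14, the leukocyte integrins and the pathway genes 1.5-fold apart were named after their values were seen. Members and lists were chosen with earlier results of these data known. The ratio step was run on simulated Poisson counts without spread between cells or mice, which checks arithmetic and counting error only. Of genes set 2-fold apart, 95.1% in subepithelial, 98.6% in lamina propria and 100% in adventitial cells were past 1.5-fold. Of unchanged genes 0.405%, 0% and 0% were. Sample columns left unused numbered 0.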

Additional observations from a re-analysis of the deposited data

Results flagged for a closer look

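Adamts3, a procollagen N-proteinase that also helps process VEGF-C, was lower in the Cre library in subepithelial cells and higher in adventitial cells. It was at 13.3 CPM in Cre and 20.8 CPM in control subepithelial cells, and at 12.6 and 7.59 CPM in adventitial cells. Its log2 ratio in adventitial cells minus that in subepithelial cells was 1.28. In subepithelial cells it stayed past 1.5-fold in 6 of 11 alternatives, and in adventitial cells in 8 of 9. With 1 library per genotype the difference was not tested.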

How the results depend on the processing

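No paired analysis was possible because each genotype had 1 library. Under the alternatives run, member medians in all 4 groupings moved by no more than the median half-width of single members' intervals. In log2 units that was 0.264 in subepithelial, 0.164 in lamina propria, 0.114 in adventitial and 0.081 in all fibroblast cells. It is not the counting error of a median, which was not computed. Counts of members 1.5-fold apart moved with the minimum level and the CPM added. With 10 CPM added they were 5 in subepithelial, 1 in lamina propria, 2 in adventitial and 1 in all fibroblast cells, against 8, 4, 5 and 2 as reported. With no minimum other than 1 UMI they were 14, 11, 9 and 6, and with a mean of at least 50 CPM 3, 1, 1 and 1; fewer genes are tested at 50 CPM by construction. The subepithelial count was 5 with clusters gated in place of cells. The adventitial count was 3 with a gate margin of 0.5 and 1 with gates drawn on cells thinned to 2000 UMIs; the cause was not tested. Class-restricted members numbered 6 as first gated and 10 with clusters gated or with a score of at least 3 for other cells, an alternative added after the data were seen. Itga1, Adamts1, Adamtsl1 and Itga4 in subepithelial cells stayed past 1.5-fold under each alternative that measured them. The other subepithelial calls did not: Adamts17 was past it in 7 of 11 alternatives, with log2 ratios down to 0.44, Adamts2 in 9 of 11, up to -0.40, Adamts3 in 6 of 11, up to -0.40, and Adamtsl5 in 8 of 11, up to -0.18. Adamts19 in lamina propria cells was past it in 7 of 11, up to -0.47. In adventitial cells Adamts17 was past it in 8 of 13 and Adamts9 in 8 of 14. Itga1 in lamina propria cells was not past it over all cells of cluster 4, with a log2 ratio of 0.012, or with 10 CPM added. In adventitial cells Itga1 was at 0.53 with thinned gates. Log2 ratios of opposite sign were found over all cells of single adventitial clusters, also added later. They were -0.42 for Adamts17 in cluster 7, -0.40 and -0.49 for Adamts9 in clusters 5 and 7, and 0.58 for Itgbl1 in cluster 7. Ratios in smooth muscle and glia come from the stricter gates alone and were not run under the alternatives. Small gates, above all lymphatic and mesothelial cells, limit what can be read for rare members.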

Other observations

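The ADAMTS-like genes had their own order in each gate. Adamtsl1 led them in adventitial cells, with 56.4% of ADAMTS-like UMIs in Cre and 64.1% in control, and in lymphatic cells, with 87.1% and 81.9%. Adamtsl4, which encodes a microfibril-associated protein, led them in lamina propria cells, with 42.6% and 37.7%, and in smooth muscle, with 42.0% and 49.3%. In the Rgs5/Abcc9 gate Adamtsl3 led, with 65.5% in Cre and 57.8% in control, at 353 and 342 CPM. In subepithelial cells the leading gene was Adamtsl1 in Cre, with 57.4% against 33.2% in control, and Adamtsl4 in control, with 30.9% in Cre and 48.9% in control.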
